A study of Mus musculus with 39 samples.

Results

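The class III POU genes Pou3f1, Pou3f2, Pou3f3 and Pou3f4 were examined for NOTCH and RBPJ binding in the embryonic mouse cortex. Their sites were the consensus peaks whose nearest protein-coding start site on mm10 belonged to one of these 4 genes. This gave 41 of 20809 consensus peaks on the nuclear chromosomes, of which 29 lay nearest Pou3f3, 9 nearest Pou3f2, 2 nearest Pou3f4 and 1 nearest Pou3f1. The genes were chosen by the number and position of these same peaks, among them the many RGC Notch peaks at Pou3f3, so counts by gene, list and cluster are a description and carry no test.

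Binding was mapped by Targeted DamID (TaDa), in which a Dam methylase fused to a protein methylates GATC sites near the places the fusion reaches. The 39 samples of the series came from cortex electroporated in utero at E13.5, and the 23 used here were dissected at E14.5 from wild-type MF1 embryos. The RGC RBPJ list rested on 3 samples and the IPC RBPJ list on 3 samples, all with human RBPJ1 fused to Dam. The RGC Notch list rested on 4 samples, of which 2 carried mouse NICD, the intracellular domain, and 2 carried mouse NdECD, which lacks the extracellular domain. The IPC Notch list rested on 4 samples, all with mouse NICD. RGC plasmids used the Hes5 promoter and IPC plasmids the Tα1 promoter, so each cell type is defined by the promoter that drove the plasmid, and the fusions were expressed ectopically in all groups. The files hold no expression, so the labelled cell types could not be checked against markers. Controls were Dam-only samples, 5 in RGCs and 4 in IPCs, and the labels tie 4 of those 5 RGC controls to the Notch tracks. The RBPJ and Notch lists of a cell type share these controls. Each list is pooled over its samples, because a peak was kept only where every pair of fusion and control showed it, so a site is either called in a list or not and has no value per sample or spread between replicates.

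Class III POU factors bind DNA through a POU-specific domain joined to a homeodomain, and their classical target is the octamer ATGCAAAT. In the developing cortex POU3F2 (BRN2) and POU3F3 (BRN1) act in progenitors and in the production and migration of upper-layer neurons, POU3F4 (BRN4) is known from the inner ear and neural tube, and POU3F1 (OCT6) from myelinating Schwann cells as well as the nervous system. In the canonical Notch pathway NICD enters the nucleus and binds RBPJ, a DNA-binding protein whose core word is TTCCCA.

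The 6 sites called in 3 or more of the 4 lists are shown first, each by the stretch around the TTCCCA word that lies nearest its centre and outside any UTR. TTCCCA is in capitals, as is TAATTA, a homeodomain word, where the window holds it. Sites are named by their distance from the start site, and sequences were read from the GRCm38 assembly. A stretch shown need not lie in every list peak of its site. The stretch at 805 kb lies outside the IPC RBPJ peak, and that at 8.93 kb outside the IPC RBPJ and IPC Notch peaks.
Pou3f2 site at 481 kb, chr4:22972977-22973062, minus strand: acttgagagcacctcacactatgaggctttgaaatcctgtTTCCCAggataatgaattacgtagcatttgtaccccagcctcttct
Pou3f3 site at 883 kb, chr1:41811446-41811531, minus strand: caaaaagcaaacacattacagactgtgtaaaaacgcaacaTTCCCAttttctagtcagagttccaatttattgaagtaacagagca
Pou3f3 site at 805 kb, chr1:41889980-41890065, plus strand: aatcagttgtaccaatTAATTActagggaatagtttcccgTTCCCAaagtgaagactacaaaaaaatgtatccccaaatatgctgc
Pou3f3 site at 437 kb, chr1:42257597-42257682, plus strand: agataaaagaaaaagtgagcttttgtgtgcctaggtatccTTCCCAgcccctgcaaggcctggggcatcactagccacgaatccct
Pou3f3 site at 8.93 kb, chr1:42683912-42683997, plus strand: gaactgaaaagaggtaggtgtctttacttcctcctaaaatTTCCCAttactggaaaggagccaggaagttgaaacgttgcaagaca
Pou3f3 site at the 3′ end of the gene, chr1:42704054-42704139, minus strand: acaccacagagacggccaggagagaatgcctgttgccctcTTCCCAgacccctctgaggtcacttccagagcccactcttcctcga

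The site 8.93 kb upstream of Pou3f3 held 4 copies of the octamer, the most of any of the 41 sites, and these are shown with ATGCAAAT in capitals. The other octamers lay 732, 771 and 906 bp from the first. Windows 1 and 3 are near copies of each other on opposite strands, so these octamers are not all separate occurrences. All 4 lay within the RGC RBPJ peak of the site and outside its IPC RBPJ and IPC Notch peaks. TAATTA is again in capitals.
Pou3f3 octamer window 1, chr1:42682620-42682667, plus strand: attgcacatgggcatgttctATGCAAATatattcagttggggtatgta
Pou3f3 octamer window 2, chr1:42683352-42683399, plus strand: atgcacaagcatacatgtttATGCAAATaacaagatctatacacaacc
Pou3f3 octamer window 3, chr1:42683391-42683438, minus strand: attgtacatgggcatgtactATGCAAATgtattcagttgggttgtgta
Pou3f3 octamer window 4, chr1:42683526-42683573, plus strand: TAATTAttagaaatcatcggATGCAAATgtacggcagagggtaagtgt

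RefSeq promoter sequences on GRCm38 were matched for 3 of the 4 genes. The bases before the start site are shown because a site covers that of Pou3f4 while those of Pou3f2 and Pou3f3 lie between sites, a choice made after the positions were seen. Capitals mark the TTCCCA word on either strand. No bases downstream of the annotated start sites are included.
Pou3f2 promoter, chr4:22488367-22488616, minus strand: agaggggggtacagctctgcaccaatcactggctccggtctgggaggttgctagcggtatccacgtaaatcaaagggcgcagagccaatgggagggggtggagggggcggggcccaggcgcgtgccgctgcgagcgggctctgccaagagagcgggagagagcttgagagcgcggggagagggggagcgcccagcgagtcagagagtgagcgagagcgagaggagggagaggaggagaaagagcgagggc
Pou3f3 promoter, chr1:42695518-42695767, plus strand: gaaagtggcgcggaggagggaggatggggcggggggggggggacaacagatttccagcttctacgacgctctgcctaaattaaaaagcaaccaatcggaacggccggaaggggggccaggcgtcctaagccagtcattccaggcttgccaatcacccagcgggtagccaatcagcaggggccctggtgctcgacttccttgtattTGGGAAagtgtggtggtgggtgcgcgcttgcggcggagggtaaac
Pou3f4 promoter, chrX:110814129-110814279, plus strand: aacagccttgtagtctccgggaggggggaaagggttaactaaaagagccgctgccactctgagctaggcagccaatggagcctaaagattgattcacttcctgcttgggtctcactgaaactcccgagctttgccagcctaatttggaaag

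The promoter of Pou3f3 held 1 TTCCCA, written TGGGAA on the strand shown, and those of Pou3f2 and Pou3f4 held 0. Of 32851 RefSeq promoter windows of 300 bases, 25.6% held TTCCCA. All 3 class III promoters held 0 octamers and 0 TAATTA, which 1.74% and 5.29% of all promoters held. They also held 0 GATC, the word that Dam methylates, against 48.0% of all promoters with at least 1. Counts over the full windows of 300 bases were the same as over the printed stretches of 250, 250 and 151 bases. These are matches of letters on both strands and were not tested as binding sites.

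Pou3f3 carried most of the peaks in all 4 lists. It was the nearest gene of 21 RGC RBPJ peaks, 14 RGC Notch peaks, 10 IPC RBPJ peaks and 8 IPC Notch peaks. Pou3f2 followed with 7 RGC RBPJ peaks, 4 RGC Notch peaks, 2 IPC RBPJ peaks and 1 IPC Notch peak. Pou3f4 had 1 RGC RBPJ peak and 2 IPC RBPJ peaks, and Pou3f1 had 1 peak in each RBPJ list. Neither Pou3f4 nor Pou3f1 had a Notch peak in RGCs or IPCs.

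**Figure D1:**
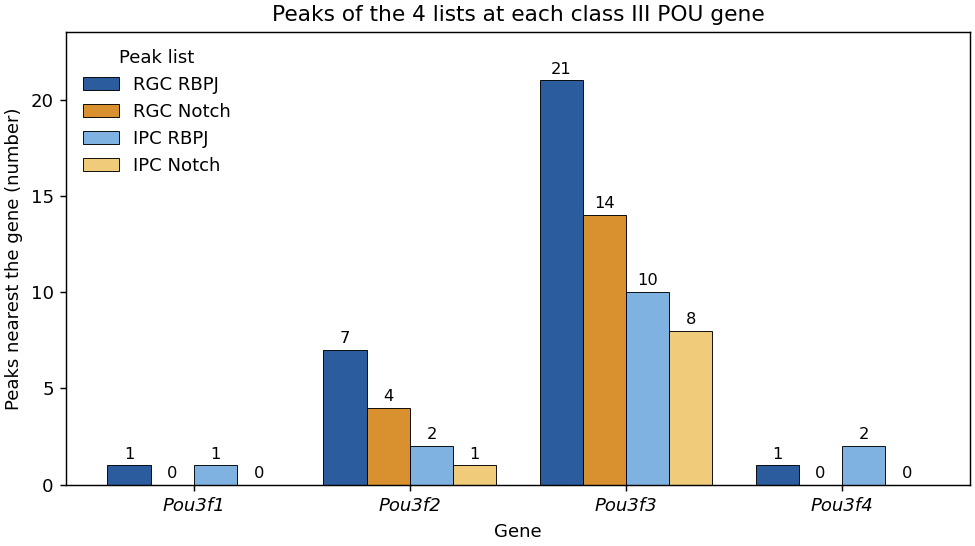
Number of peaks nearest each class III POU gene (vertical axis) in the 4 pooled lists (colours); bars have no error because each list is pooled over its samples. Pou3f3 has 21, 14, 10 and 8 peaks, while Pou3f1 and Pou3f4 have none in either Notch list.

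As a set, the 4 genes took a larger part of the Notch lists than of the RBPJ lists. They were nearest to 18 of 3702 RGC Notch peaks (0.486%) and 9 of 2157 IPC Notch peaks (0.417%). They were nearest to 30 of 14097 RGC RBPJ peaks (0.213%) and 15 of 5497 IPC RBPJ peaks (0.273%), close to their share of 0.197% of all consensus peaks. Pou3f3 supplied 14 of the 18 RGC Notch peaks and 8 of the 9 IPC Notch peaks. It supplied 21 of the 30 RGC RBPJ peaks and 10 of the 15 IPC RBPJ peaks. Pou3f2 had the other Notch peaks, 4 in RGCs and 1 in IPCs, and Pou3f1 and Pou3f4 had 0. The Notch shares thus rest mostly on Pou3f3 and are not a trait of all 4 genes. By the number of RGC Notch peaks only Msi2, with 15, stood above Pou3f3, with 14. This rank is part of how Pou3f3 was chosen.

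Counted over consensus peaks, here called sites, 30 of the 41 were called in the RGC RBPJ list, against 67.6% of all sites. The share was 73.2%, with a 95% Wilson interval of 58.1 to 84.3, which holds the background. The RGC Notch list held 17 of the 41 (41.5%, interval 27.8 to 56.6), against 17.7% of all sites. The IPC RBPJ list held 14 (34.1%, interval 21.6 to 49.5), against 26.2%, and the IPC Notch list held 9 (22.0%, interval 12.0 to 36.7), against 10.1%. Intervals cover counting error over sites, and neighbouring sites are not independent. Without Pou3f3, 4 of 12 sites were called in the RGC Notch list (interval 13.8 to 60.9) and 1 of 12 in the IPC Notch list, so the Notch shares of the other genes cannot be separated from the background at this number of sites.

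More of the 41 sites were shared between lists than over all sites. Of them, 21 were called in 2 or more lists (51.2%, interval 36.5 to 65.7), against 17.1% of all sites. The counts were 15 of 29 at Pou3f3 and 6 of 12 at the other genes. There were 6 sites called in 3 or more lists (14.6%, background 3.88%), of which 5 were at Pou3f3 and 1 at Pou3f2, and 2 sites called in all 4 lists (4.88%, background 0.678%), both at Pou3f3. The class III sites were also wider, with a median of 2918 bp against 1890 bp, and 7 of 41 reached 5 kb, against 5.19% of all sites. A wider site can overlap more peaks, and the part of width in these counts was not tested.

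Both proteins were called in RGCs at 10 sites (24.4%, background 7.77%) and in IPCs at 4 sites (9.76%, background 2.36%). The 10 sites in RGCs comprised 8 at Pou3f3 and 2 at Pou3f2, and all 4 in IPCs were at Pou3f3, which leaves 0 of 12 at the other genes. Among the 4 in IPCs, the site 8.93 kb upstream of Pou3f3 held IPC RBPJ and IPC Notch peaks that did not overlap each other. Sites called in both cell types numbered 15 (36.6%, interval 23.6 to 51.9, background 11.5%). A further 22 sites (53.7%, background 66.1%) were called only in RGCs and 4 (9.76%, background 22.4%) only in IPCs. Since the RBPJ and Notch lists of a cell type share their controls, these overlaps are given as counts.

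The authors sorted all consensus peaks into 8 k-means clusters by binding intensity, which the cluster file does not hold. By their account, both proteins bound in RGCs and IPCs in clusters 2, 6 and 7, and in RGCs in cluster 4. In the other clusters 1 protein bound preferentially. The co-bound clusters 2, 4, 6 and 7 took 27 of the 41 class III sites (65.9%, interval 50.5 to 78.4), against 36.3% of all sites. They took 19 of 29 sites at Pou3f3, 7 of 9 at Pou3f2, 1 of 1 at Pou3f1 and 0 of 2 at Pou3f4. By peak calls in place of clusters, 12 of the 41 sites (29.3%, interval 17.6 to 44.5) had both proteins in at least 1 cell type, against 9.45% of all sites. Both measures thus stood above their background, at different levels.

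Cluster 6, which the authors give as bound by both proteins in both cell types, was the most frequent among the class III sites. It had 11 of 41 (26.8%, interval 15.7 to 41.9), against 10.8% of all sites. Pou3f3 had 9 of these and Pou3f2 had 2. By peak calls, only the site 805 kb upstream of Pou3f3 among them was called in all 4 lists. Others, such as those 1.19 and 155 kb upstream of Pou3f3, were called in the RGC RBPJ list alone. The binding named is thus that of the cluster and not of each site. Cluster 2 had 5 sites (background 4.76%), cluster 4 had 5 (background 9.79%) and cluster 7 had 6 (background 11.0%). The RBPJ-alone clusters had smaller shares than over all sites, with 3 sites each in cluster 3 (7.32%, background 16.3%), cluster 5 (7.32%, background 22.5%) and cluster 8 (7.32%, background 14.4%). The interval is 2.52 to 19.4 for each of these 3 clusters. Cluster 1, which the authors give as Notch alone in RGCs, had 5 sites (12.2%, background 10.5%). By peak calls, however, those at 888, 870 and 61.7 kb upstream of Pou3f3 were called in both RGC lists.

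**Figure D2:**
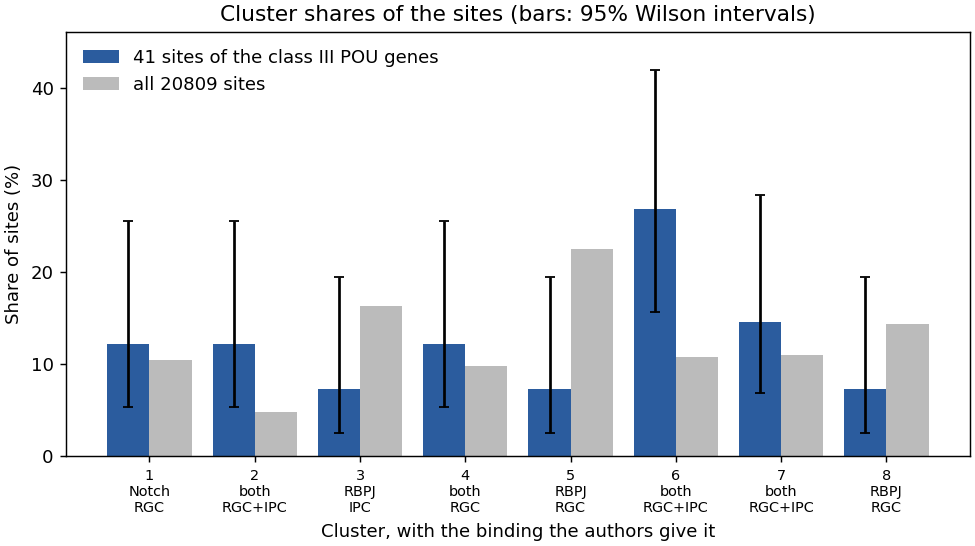
Share of sites (vertical axis, %) in each of the 8 clusters (horizontal axis, with the binding given by the authors) for the 41 class III POU sites with 95% Wilson intervals (blue) and for all 20809 sites (grey). Cluster 6 stands at 26.8% against 10.8%, and cluster 5 at 7.32% against 22.5%.

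Most class III sites lay far from a start site. Of the 41, 23 were over 300 kb from the start site of their gene (56.1%, interval 41.0 to 70.1), against 7.59% of all sites, and the median distance was 433 kb against 21.1 kb. Only 1 site, at Pou3f4, covered a start site (2.44%), against 16.6% of all sites. Assignment to the nearest start site lets distances grow where genes are sparse. Pou3f2, Pou3f3 and Pou3f4 stand in gene-poor stretches, and the stretch nearest to each one's start site measured 1.07, 1.02 and 0.957 Mb, against 0.0414 Mb for Pou3f1. Assignment by the nearest start site does not show that a site acts on that gene.

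These stretches were not equally filled. Pou3f3 had 28.4 sites per Mb of its stretch (exact Poisson interval 19.0 to 40.7), Pou3f2 had 8.42 (3.85 to 16.0) and Pou3f4 had 2.09 (0.253 to 7.55), while all sites averaged 7.84 per Mb. Among the 419 genes with a stretch of at least 0.9 Mb the median was 3.09 sites per Mb. Of these 419, only Zfp608, with 28.8, and Tmem182, with 29.4, exceeded Pou3f3, whereas 69 exceeded Pou3f2 and 267 exceeded Pou3f4. This ranking depends on the limit of 0.9 Mb. Just below it, Nfib had 35.9 sites per Mb over 0.807 Mb and Sox6 had 34.4 over 0.843 Mb. Pou3f1 had 1 site in its short stretch, which gives an interval of 0.612 to 135.0 per Mb. Since such counts chose the genes, this is a description. The intervals cover counting error only, and neighbouring sites are not independent.

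**Figure D3:**
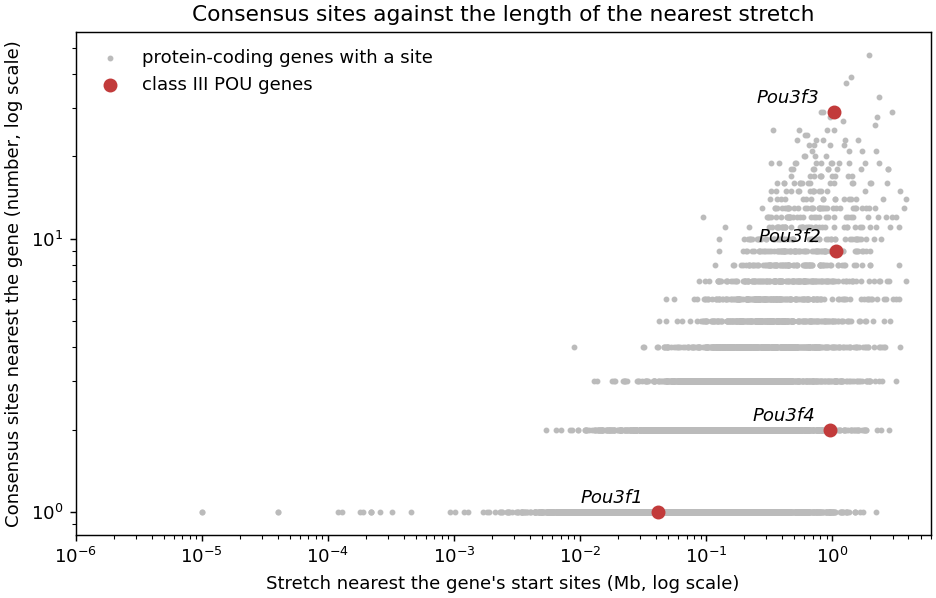
Consensus sites nearest each protein-coding gene (vertical axis, number, log scale) against the length of the stretch nearest its start sites (horizontal axis, Mb, log scale); grey points are genes with at least 1 site and red points the class III POU genes. Pou3f2, Pou3f3 and Pou3f4 have stretches of similar length, with 9, 29 and 2 sites, and Pou3f3 lies at the upper edge of the grey points.

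Pou3f3 (ENSMUSG00000045515, chr1:42695768-42703176, plus strand) encodes BRN1 in an exon without introns. With 29 sites it stood behind 4 genes, Auts2 with 47, Epha4 with 39, Zfp608 with 37 and Adgrl2 with 33, and level with Nfib, Sox6 and Tenm3, also with 29 each. These genes were named after their counts were seen. The next protein-coding start sites were those of Tmem182, 1890.2 kb upstream, and Mrps9, 155.5 kb downstream.

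The sites of Pou3f3 fell into 3 groups separated by gaps of 141.8 and 209.6 kb, a division made after their positions were seen. The far group held 13 sites between 597 and 943 kb upstream. Of these, RGC RBPJ called 9, RGC Notch 6, IPC RBPJ 4 and IPC Notch 5. The middle group held 5 sites within 38.8 kb, between 417 and 454 kb upstream, and the same lists called 3, 4, 1 and 2. The near group held 11 sites between 202 kb upstream and 37.8 kb downstream, and the lists called 9, 3, 4 and 1. Over all sites these lists called 67.6%, 17.7%, 26.2% and 10.1%. Sites called in 2 or more lists numbered 7 of 13, 4 of 5 and 4 of 11, against 17.1% of all sites. A run of 13 sites within 349.7 kb, as in the far group, opened at 829 of the 20809 sites (3.98%).

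The 2 sites called in all 4 lists were both in the far group, within introns of the lincRNA gene Gm29260. The first, chr1:41808702-41812652, lay 883 kb upstream in cluster 2. Its RGC RBPJ peak measured 3951 bp and its RGC Notch peak 3916 bp. The IPC RBPJ list had 2 peaks there, of 1116 and 1524 bp, and the IPC Notch peak of 1014 bp ended at the same base as the second of them. The second site, chr1:41886321-41890861, lay 805 kb upstream in cluster 6. Its RGC RBPJ peak measured 4310 bp, while the RGC Notch and IPC Notch peaks, of 2360 and 2564 bp, began at the same base, and the IPC RBPJ peak measured 398 bp. At both sites the IPC RBPJ peaks were narrower than the RGC RBPJ peak, as they are over the whole lists, where the median width was 1398 bp for IPC RBPJ and 2059 bp for RGC RBPJ.

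**Figure D4:**
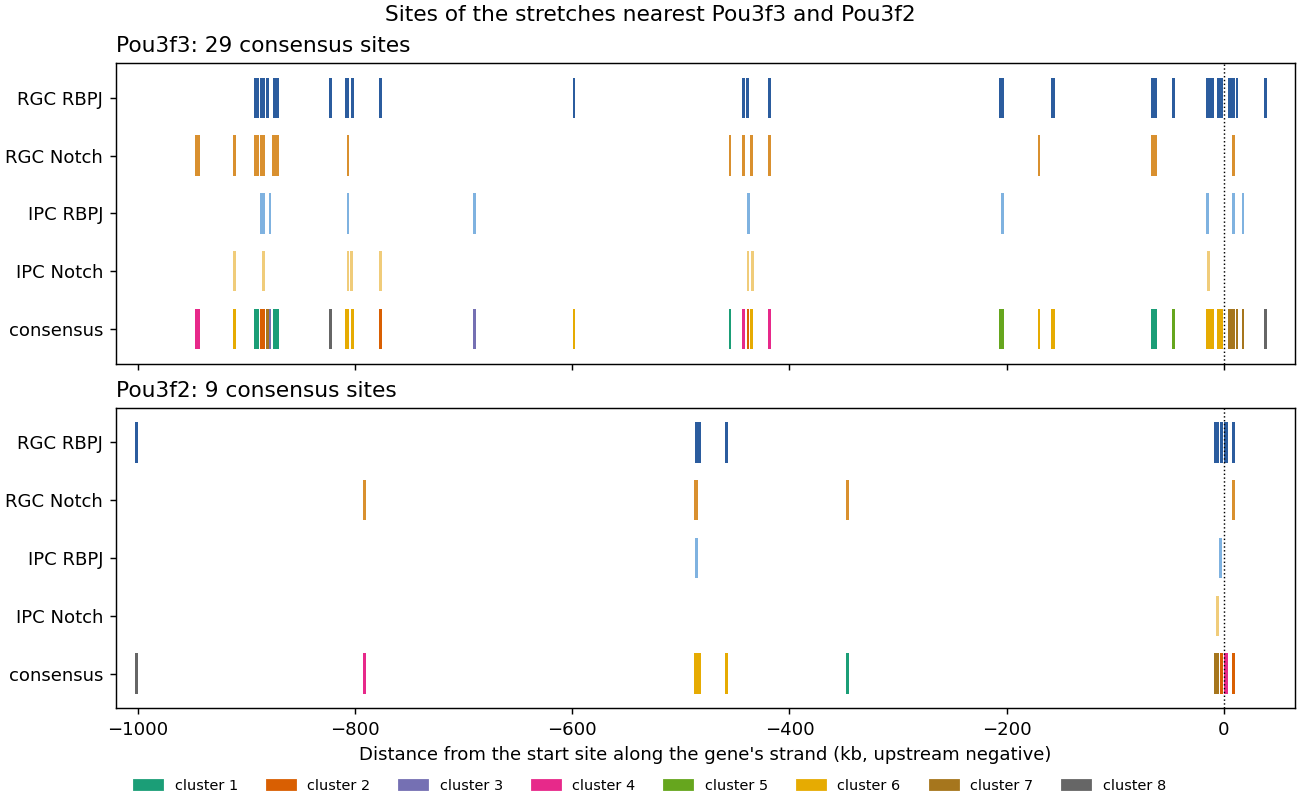
Peaks of the 4 lists and the consensus sites, coloured by cluster, along the stretches nearest Pou3f3 and Pou3f2; the horizontal axis is the distance from the start site along the gene's strand in kb, upstream negative, and marks are drawn at least 2.5 kb wide. The sites of Pou3f3 gather in a far, a middle and a near group, and those of Pou3f2 in 4 sites at the gene and 5 scattered upstream.

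The line between Pou3f3 and Tmem182 passes through a crowded region. The first Pou3f3 site, chr1:41748724-41753125, was 942.6 kb from Pou3f3 and 943.1 kb from Tmem182. It was 4402 bp wide and called in the RGC Notch list alone. The site just outside, chr1:41742163-41746004 in cluster 2, was 936.6 kb from Tmem182 and 949.8 kb from Pou3f3 and was called in 3 lists. All 28 sites of Tmem182 lay between the start sites of Tmem182 and Pou3f3, which enclosed 53 sites in all, and within 200 kb of the line there were 8 sites on the Tmem182 side and 11 on the Pou3f3 side. Of the 28, 25 were called in the RGC RBPJ list, 6 in RGC Notch, 4 in IPC RBPJ and 5 in IPC Notch. The count of 29 therefore depends on where the nearest gene changes.

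In the middle group the site chr1:42256416-42258759 was called in the RGC RBPJ, IPC RBPJ and IPC Notch lists and belonged to cluster 2. The 3 peaks there had similar widths, of 1881, 1895 and 1576 bp. No annotated gene overlapped it, and the next site downstream touched an exon of the lincRNA gene Gm28175.

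Close to Pou3f3 the start site itself was free of peaks. The nearest upstream site, chr1:42689319-42694575, measured 5257 bp, ended 1193 bp before the start and was called in the RGC RBPJ list alone. The nearest downstream site, chr1:42699257-42705730, began 3489 bp after the start and covered 52.9% of the gene, reaching past its 3′ end. It was called in the RGC RBPJ, RGC Notch and IPC RBPJ lists and belonged to cluster 7. The RGC Notch peak of 2017 bp and the IPC RBPJ peak of 1603 bp lay in its distal part, beyond the end of the gene. The gap of 4681 bp over the start held 7 GATC sites and had a GC content of 64.5%. Why no peak was called there was not tested.

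The widest site of Pou3f3, chr1:42679204-42686842, lay 8.93 kb upstream in cluster 6 and measured 7639 bp. The RGC RBPJ peak spanned all of it, and IPC RBPJ and IPC Notch peaks lay in its upstream part. It is the site with the 4 octamers printed above. The remaining Pou3f3 sites of 5 kb or more were at 870 kb (5817 bp) and 61.7 kb upstream (5791 bp), both called in the RGC RBPJ and RGC Notch lists and placed in cluster 1.

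Within 100 kb of the start, sites of Pou3f3 overlapped the non-coding genes Pantr1, Pantr2 and AC122898.1. Pantr1, a lincRNA gene, was touched by 4 sites from 1.19 to 61.7 kb upstream. Pantr2 was touched by 2 sites, at 11.1 kb downstream, called in RGC RBPJ alone, and at 16.9 kb downstream, called in IPC RBPJ alone. AC122898.1, annotated as overlapping in the same sense, was touched by 4 sites. When start sites of all annotated genes were used in place of protein-coding ones, 12 of the 29 sites were nearest Gm29260, 4 nearest Pantr1, 4 nearest Gm28175, 3 nearest Pantr2, 3 nearest Gm37047 and 0 nearest Pou3f3.

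Pou3f2 (ENSMUSG00000095139, chr4:22482780-22488366, minus strand) encodes BRN2, likewise without introns. Its 9 sites comprised 4 within 10 kb of the start and 5 between 346 and 999 kb upstream. No site overlapped the start, which fell between 2 of them.

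The 4 near sites were all called in the RGC RBPJ list, and each differed in the other lists. The site over the gene body, chr4:22484513-22488166, began 200 bp after the start, covered 65.4% of the gene, was called in RGC RBPJ alone and belonged to cluster 4. The site chr4:22489203-22492171, 837 bp upstream, was called also in IPC RBPJ, belonged to cluster 2 and touched an exon of the lincRNA gene Gm30731. The site chr4:22493168-22497917, 4.80 kb upstream, was called also in IPC Notch and belonged to cluster 7. The site chr4:22478074-22481340, 7.03 kb downstream of the start and past the end of the gene, was called also in RGC Notch and belonged to cluster 2. No near site of Pou3f2 was called in both Notch lists, or in both IPC lists. Both IPC lists called 2.36% of all sites and the IPC Notch list 10.1%, so 4 sites are too few to show a trait.

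The gap between the peaks on either side of the Pou3f2 start measured 1036 bp, with a GC content of 60.0%, and held 0 GATC. The whole gap lay inside 1 DamID fragment, the stretch between neighbouring GATC sites, which measured 1277 bp. Binding at the start could thus be registered only through the 2 ends of that fragment, and whether the missing call reflects this was not tested. In the 5587 bp of the gene there were 13 GATC sites, or 2.33 per kb.

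**Figure D5:**
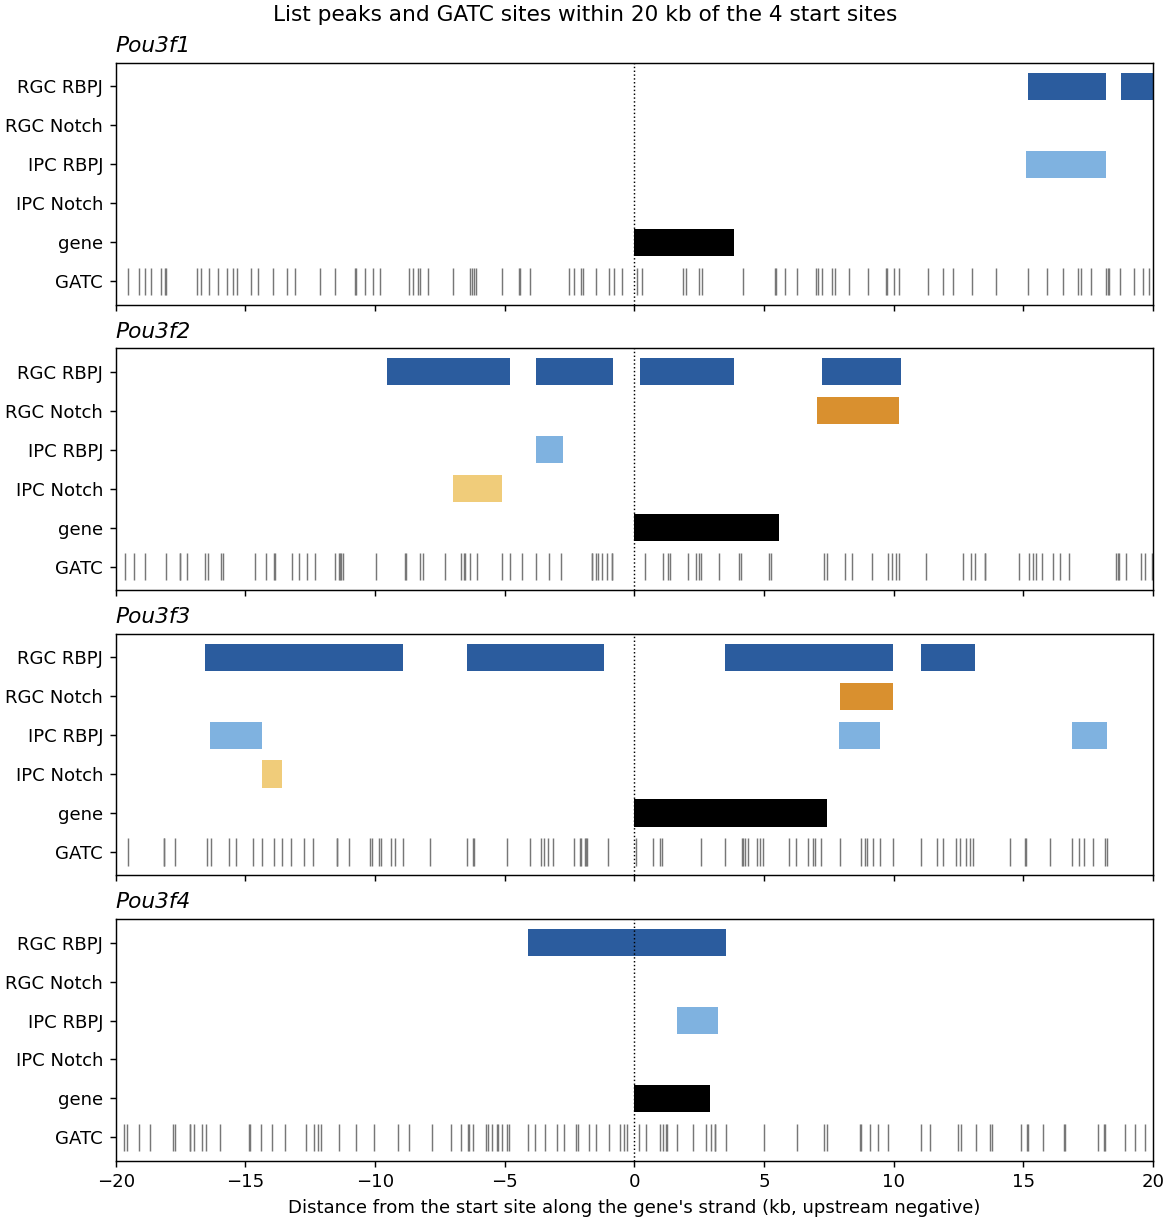
List peaks (coloured bars), the gene (black) and GATC sites (grey ticks) within 20 kb of each start site, with distance along the gene's strand in kb on the horizontal axis and upstream negative. No peak lies on the starts of Pou3f1, Pou3f2 and Pou3f3, and the start of Pou3f2 lies in a gap without GATC, whereas 1 RGC RBPJ peak covers the whole of Pou3f4.

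Among the far sites of Pou3f2, chr4:22969855-22975871 stood out by being called in 3 lists. It lay 481 kb upstream in cluster 6 and measured 6017 bp, the only site of 5 kb or more at this gene. The RGC RBPJ peak measured 5612 bp, the RGC Notch peak 3677 bp and the IPC RBPJ peak 1517 bp, and the IPC peak lay within both RGC peaks. Of the other far sites, those at 346 kb (508 bp, cluster 1) and 791 kb (809 bp, cluster 4) were called in RGC Notch alone, and those at 456 kb (2245 bp, cluster 6) and 999 kb (2741 bp, cluster 8) in RGC RBPJ alone. The farthest, chr4:23487577-23490317, was 999.2 kb from Pou3f2 and 1006.1 kb from Mms22l. The site just past the line, chr4:23511587-23514218, was 982.2 kb from Mms22l and 1023.2 kb from Pou3f2 and was called in both RGC lists.

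Pou3f4 (ENSMUSG00000056854, chrX:110814280-110817207, plus strand) had the widest site of the family and the only one on a start site. This site, chrX:110810172-110817823, measured 7652 bp and covered all 2928 bp of the gene and the bases before it. The RGC RBPJ peak spanned the whole site, and the IPC RBPJ peak of 1545 bp lay over the 3′ part of the gene and past its end. Neither Notch list held a peak there, and the site belonged to cluster 5, which the authors give as RBPJ alone in RGCs. The site touched the lincRNA gene Gm44593 as well. The promoter of Pou3f4 printed above lies within it and has no TTCCCA, while the site as a whole held 7 TTCCCA and 1 octamer.

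The other site of Pou3f4, chrX:110568484-110569768, lay 245 kb upstream, measured 1285 bp and was called in IPC RBPJ alone, in cluster 3. It held 0 GATC, which was true of 1 of the 41 class III sites (2.44%) and of 9.76% of all sites. It lay inside 1 fragment of 1685 bp between neighbouring GATC sites, so the call rests on methylation at the ends of that fragment. Its GC content of 32.1% was the lowest of the 41.

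Pou3f1 (ENSMUSG00000090125, chr4:124656807-124660655, plus strand) had 1 site, chr4:124671888-124675002, of 3115 bp and 15.1 kb downstream of the start. It was called in both RBPJ lists and placed in cluster 7, a cluster with both proteins in both cell types, although neither Notch list held a peak there. It was 18.5 kb from the start of Utp11, so its assignment to Pou3f1 was close. The next site downstream, called in RGC RBPJ, was 16.7 kb from Utp11 and 18.7 kb from Pou3f1. The gene itself lay in a gap of 49.6 kb between sites. This gap held 112 GATC, and why no peak was called there was not tested. The GC content of Pou3f1, 63.9%, was the highest of the 4 genes.

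The 4 genes shared 0 runs of 50 bases in any pair, on either strand. Of the 82 edges of the 41 sites, 35 had a GATC within 10 bp.

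The RBPJ word was about as dense in the class III sites as in all sites. TTCCCA occurred 134 times in 133.0 kb, or 1.01 per kb (exact Poisson interval 0.844 to 1.19), against 1.17 per kb over all sites, and 38 of the 41 sites held at least 1, against 82.9% of all sites. Per kb it was most frequent at Pou3f1 (1.93, interval 0.707 to 4.19) and least at Pou3f2 (0.816, interval 0.511 to 1.24), and the intervals of all 4 genes overlapped. In the central 300 bp, 13 of 41 sites (31.7%) held it, against 29.7% of all sites. The class III sites had a lower GC content than all sites, with a median of 42.1% against 45.3%, and its part in the word counts was not tested.

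The octamer ATGCAAAT occurred 12 times, or 0.0902 per kb (interval 0.0466 to 0.158), against 0.0829 over all sites. In the central 500 bp the order turned, with 1 octamer in 41 sites, or 0.0488 per kb, against 0.0908 over all sites. Over their whole length it was present in 9 of 41 sites, against 15.8% of all sites, which gives 22.0% with an interval of 12.0 to 36.7. Pou3f3 held 9 of the 12, of which 4 were in the site 8.93 kb upstream, Pou3f2 held 2 and Pou3f4 held 1. TAATTA, the word bound by many homeodomain factors, was present in 33 of 41 sites (80.5%, interval 66.0 to 89.8), against 45.7% of all sites, and its density was 0.504 per kb (0.39 to 0.64), against 0.358. Per kb the excess was smaller than in sites with at least 1, and the class III sites are both wider and richer in A and T, whose part was not tested. In the central 300 bp, which leaves out the difference in width, 6 of 41 sites held TAATTA (14.6%), against 10.04% of all sites. GATC occurred at 2.81 per kb (2.53 to 3.11), against 2.91 over all sites.

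POU genes of other classes had fewer sites than Pou3f2 and Pou3f3. Of the 10 examined, 5 had at least 1 site, against 38.8% of all protein-coding genes, and they had 16 sites together, while all genes averaged 0.949 sites each. Pou2f1 had 5 sites, Pou5f2 had 4, Pou4f1 had 3, and Pou2f2 and Pou4f3 had 2 each. Pou1f1, Pou2f3, Pou4f2, Pou5f1 and Pou6f1 had 0. Only Pou2f1, the gene of the broadly expressed OCT1, had a site on a start site. RGC Notch called at least 1 site at 3 of the 10 genes, against 11.5% of all genes, and IPC Notch at 1, against 6.92%. Their stretches were shorter than those of Pou3f2, Pou3f3 and Pou3f4, from 0.0246 Mb at Pou5f1 to 0.34 Mb at Pou4f1, and the part of this length in the counts was not tested.

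Genes known to work with class III POU factors or to be their targets in neural progenitors had from 1 to 23 sites, and each of the 5 examined had a site on a start site, against 14.7% of all protein-coding genes. Pou3f1, Pou3f2 and Pou3f3 had none there. This list was chosen with earlier results of these data known. Sox2, the gene of the main partner of POU factors in neural stem cells, had 23 sites, of which 20 were called in RGC RBPJ and 4 in RGC Notch. Sox11 had 12 sites, 7 of them called in IPC RBPJ and 0 in RGC Notch. Dll1, the gene of a Notch ligand, had 3 sites, of which 2 covered start sites. Nes, the nestin gene, had 2 sites. Fabp7, a radial glia gene regulated by POU factors, had 1 site, which was called in all 4 lists.

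The genes whose sites were spread over the 8 clusters most like those of Pou3f3 were Meis2, Sox9 and Thsd4. Likeness was measured by total variation distance, which is 0 for equal and 1 for wholly different shares, over 275 other genes with at least 10 sites. The distances were 0.151, 0.159 and 0.164, against a median of 0.399. Meis2 had 23 sites, of which 7 were in cluster 6, Sox9 had 23 with 6 in cluster 6, and Thsd4 had 12 with 4 in cluster 6. In the RGC Notch list, by which Pou3f3 was chosen, 13 of its 29 sites were called, against 5 of 23 at Meis2, 4 of 23 at Sox9 and 3 of 12 at Thsd4. In the IPC Notch list 8 of the 29 were called, against 7 of 23, 8 of 23 and 2 of 12.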

How the data were processed

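Reads had been mapped by the authors to mm10. Each fusion sample was set against each Dam-only control, MACS2 called broad peaks, and those that passed an FDR filter in every such pair were retained. They deposited 4 pooled peak lists and 1 file of merged consensus peaks with k-means cluster numbers. The deposited values used here are positions in bp, with 0 columns of single samples, so depth per sample cannot be read from them and no replicate could be left out. The 16 samples of other experiments were not used.

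The members, gene lists and words were chosen with earlier results of these data known. Peaks were assigned to the nearest GENCODE protein-coding start site on the GRCm38 sequence of mm10, from the nearest edge, on 21 nuclear chromosomes. No site of the 4 genes was tied between genes. A site counted as called in a list where a peak of that list overlapped it by 1 bp or more. List peaks called at the same site need not overlap each other. The stretch nearest a gene runs to the midpoints with the neighbouring start sites. Words were counted on both strands, a palindrome once. Shares have Wilson intervals and densities exact Poisson intervals, at a level of 95%. Sites described singly were those on the start or gene body, within 10 kb, called in 3 or more lists, at least 5 kb wide, or farthest away. Distances and words were checked on simulated data and were right in 500 of 500 and 200 of 200 cases. Some genes of the comparison lists are not reported here. Alternatives changed the gene set, the distance, the minimum width, the overlap and the words. Analyses used Python 3.11.15 with scipy 1.17.1, pandas 2.3.3, numpy 2.4.6 and, for plots, matplotlib 3.10.9.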

Additional observations from a re-analysis of the deposited data

How the results depend on the processing

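Of 45 alternative settings over 12 results, 28 left the value within 1.5 times the main count or within its interval and 17 moved it further. With the start sites of all annotated genes, Pou3f1 had 0 sites, Pou3f2 2, Pou3f3 0 and Pou3f4 0, because other annotated genes start closer. Within 100 kb, Pou3f2 had 4 sites, Pou3f3 8 and Pou3f4 1, and the lists held 13 RGC RBPJ, 3 RGC Notch, 6 IPC RBPJ and 2 IPC Notch peaks. With 14 sites within 100 kb, the Notch lists thus called 3 of 14 in RGCs and 2 of 14 in IPCs. Over all sites, at any distance, they called 17.7% and 10.1%, so the higher Notch shares rest mostly on sites farther away. When a list peak had to cover at least 50% of the site, 7 IPC RBPJ and 4 IPC Notch sites were left, and 31.7% of sites were called in 2 or more lists. The shares over all sites given above count overlap from 1 bp, so they do not stand beside these values. The share over all sites under the 50% rule is not reported here. By peak calls, 29.3% of sites had both proteins (9.45% of all sites), against 65.9% by clusters 2, 4, 6 and 7 (36.3% of all sites). The longer word TTCCCAC occurred 0.248 times per kb (0.27 over all sites) and the shorter ATGCAAA 0.323 times (0.241 over all sites), which follows from the length of the words. For ATGCAAAT the central 500 bp held 0.0488 words per kb in the class III sites and 0.0908 over all sites, from 1 word, so the order of the whole sites (0.0902 and 0.0829) turned. Distance from the midpoint and peaks of at least 1000 bp moved none of the results they were tried on. Without Pou3f3 the share in clusters 2, 4, 6 and 7, the share called in 2 or more lists and the word densities did not move. In a setting chosen after seeing the data, however, the share called in IPC Notch went from 22.0% to 8.33%, below the background of 10.1%. That with both proteins in IPCs went from 9.76% to 0.0%. Outside the 45 settings, the share called in all 4 lists went from 4.88% to 0.0% (0.678% of all sites). That in 3 or more lists went from 14.6% to 8.33% (3.88% of all sites), and that in cluster 6 from 26.8% to 16.7% (10.8% of all sites). No paired analysis was possible because the lists are pooled over samples. Depth is unknown, and the number of sites, 12 without Pou3f3, limits the shares.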
